A study of Homo sapiens with 12 samples.

Results

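Collagen and laminin genes encode the chains of the main structural proteins of the extracellular matrix. They were taken as the protein-coding genes whose symbol names a collagen alpha chain (COL, a type number, A and a chain number) or a laminin alpha, beta or gamma chain (LAMA, LAMB or LAMC and a number). This gave 44 collagen and 12 laminin genes, 56 of the 58735 genes measured. RNA sequencing had been run on 12 libraries of the lines KGN and COV434, both labelled as wild type. The study describes both as derived from granulosa cell tumors (GCT). There were 3 untreated libraries of each line and 3 libraries of each line treated for 72 h with 77-39, an inhibitor of SIRT3, the mitochondrial NAD-dependent deacetylase. The labels give the dose as 10 with a unit that reads as neither a mass nor a molar concentration, and they name no vehicle for the untreated cells. Each line is an established line grown as 1 population. No label says that the 3 libraries of a group came from separate cultures, so p-values measure only the spread between these libraries.

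Collagen chains wind into triple-helical trimers, which form fibrils (types I, III, V and XI), a mesh in basement membranes (type IV), beaded filaments (type VI) or links between these. Laminins are cross-shaped trimers of an alpha, a beta and a gamma chain, and they polymerise on the cell surface to start a basement membrane. In the ovary, a basal lamina of type IV collagen and laminin encloses the granulosa cells of each follicle, while fibrillar collagens lie mainly in the stroma around it.

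The libraries held 15547851 to 18280415 reads on genes. Values are FPKM, fragments scaled for gene length and by a factor for each library, so that levels can be compared between genes. Several markers went against the labels. FOXL2, a transcription factor that defines granulosa cells, had 2 reads in the 6 libraries labelled KGN together and 3769 reads in the 6 labelled COV434, where its level was 12.4 ± 0.786 FPKM (SD, n = 3) untreated. COV434 is known for the loss of both ATPases of the SWI/SNF chromatin remodeller. Of these, SMARCA2 was at 0.00773 ± 0.00127 FPKM in untreated libraries labelled KGN and 5.65 ± 0.717 FPKM in those labelled COV434, and SMARCA4 was at 2.58 ± 0.021 and 9.22 ± 3.13 FPKM. The groups are therefore called libraries labelled KGN and libraries labelled COV434, and whether the labels are exchanged was not tested. Where KGN, COV434 or a line is written alone, it is short for the libraries with that label and does not vouch for the cells. Of 6 epithelial markers, the keratin genes KRT7, KRT8, KRT18 and KRT19 were expressed in the libraries labelled COV434 (summed level of the 6 from 790 to 932 FPKM untreated), against at most 0.102 FPKM in those labelled KGN, and EPCAM was near 0 in both. Of 7 fibroblast or stromal markers, LUM and DCN were at 1 FPKM or above in both lines, FAP, THY1, PDGFRA and PDPN were below 1 FPKM in both, and PDGFRB was at 0.0262 ± 0.0199 FPKM in KGN and 2.31 ± 0.584 FPKM in COV434. Of 16 granulosa markers, 5 reached 1 FPKM in KGN and 6 in COV434 untreated, with summed levels of 110 to 118 and 79.0 to 88.0 FPKM, and the gonadotropin receptor gene FSHR had 0 reads in all 12 libraries. The granulosa markers divided between the lines, since WT1 (59.7 ± 2.85 FPKM) and NR5A2 (47.1 ± 1.60 FPKM) made up most of the sum in KGN and had 0 and 15 reads in the 6 libraries labelled COV434, while CYP11A1 (48.9 ± 2.91 FPKM in COV434) had 0 reads in KGN. Of 6 endothelial markers, TEK was above 1 FPKM in KGN (6.12 ± 0.477 FPKM, against 0.0125 ± 0.0126 FPKM) and CDH5 in COV434 (1.98 ± 0.36 FPKM, against 0.00296 ± 0.00512 FPKM). Summed immune markers (4 genes, PTPRC among them) did not exceed 0.469 FPKM in any library. The part of other cell types or states in the matrix levels was not tested, and in these bulk samples fewer cells of a type and less RNA per cell cannot be told apart.

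Of the 56 genes, 28 averaged 1 FPKM or more in at least 1 of the 4 groups (20 collagens and 8 laminins), and 19 averaged 5 FPKM or more. The other 28, made up of 24 collagens and 4 laminins, stayed under 1 FPKM in every group. Among these, 5 genes (COL13A1, COL22A1, COL6A5, COL9A1 and LAMB4) had at most 3 reads over all 12 libraries. Without 77-39, 16 genes reached 1 FPKM where the label was KGN and 21 where it was COV434. Of these, 9 were shared, 7 reached it only in the former and 12 only in the latter. The summed level of the 44 collagens was 122 ± 2.68 FPKM in untreated libraries labelled KGN and 224 ± 47.4 FPKM in those labelled COV434. For the 12 laminins the sums were 160 ± 14.4 and 202 ± 55.6 FPKM. With 77-39, the collagen sums were 121 ± 3.13 and 224 ± 16.4 FPKM, and the laminin sums 141 ± 2.57 and 181 ± 31.9 FPKM.

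The replicate libraries were close to each other in KGN and further apart in COV434. Over the genes at 1 FPKM or above, the median coefficient of variation was 5.66% untreated and 4.76% treated in the libraries labelled KGN, against 6.77% and 6.51% over all genes at that level. In the libraries labelled COV434 it was 24.7% untreated and 12.2% treated, against 17.2% and 17.7% over all genes. The untreated library 1 labelled COV434 was the highest of its group in 20 of the 21 collagen and laminin genes at 1 FPKM or above, while this library was the highest in 41.3% of all genes at that level. LUM, the interstitial proteoglycan lumican, went the other way, with 53.9 FPKM in this library and 176 and 123 FPKM in the other two. For some results in COV434, values with 1 library left out, this one among them, are given below.

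**Figure D1:**
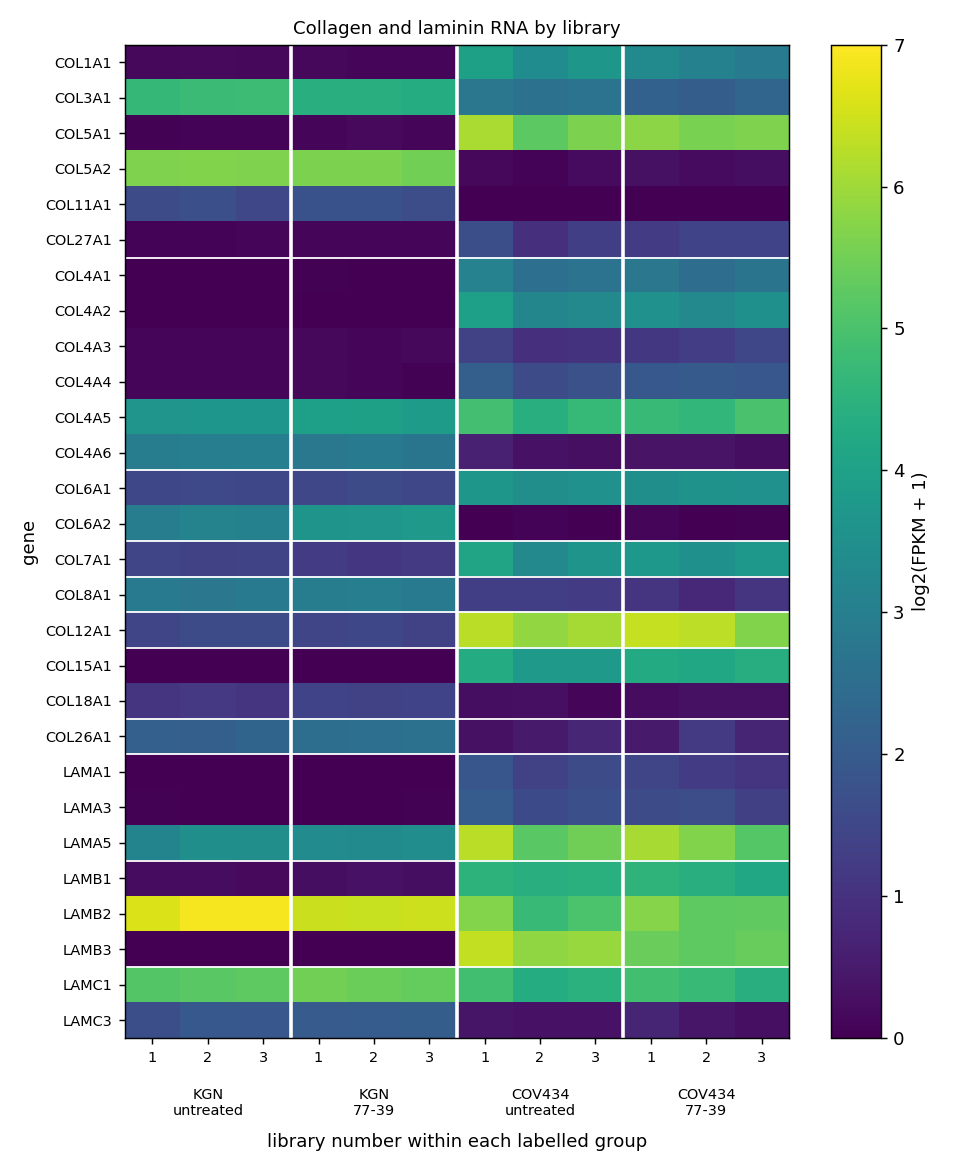
Level of the 28 collagen and laminin genes that averaged 1 FPKM or more in any group, as log2(FPKM + 1) by color. Columns are the 12 libraries in groups of 3, rows are genes ordered by protein class, and many rows are bright in the libraries of 1 label and dark in those of the other, with or without 77-39.

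The 2 labelled lines were first compared without 77-39, which asks what matrix each line makes on its own. Differences are given for libraries labelled KGN minus libraries labelled COV434, on the scale of log2(FPKM + 1), which understates changes of genes with low values. They were tested with limma over the 13098 genes that averaged 1 FPKM or more, and genes with a Benjamini-Hochberg adjusted p-value under 0.05 are called higher or lower. Of the 56 genes 25 passed this filter, and 10 were called higher in KGN and 15 lower. Of all genes tested, 69% were called, with 32.6% higher and 36.4% lower. The count over the 25 genes carries little, because 16 of them reached 1 FPKM in 1 line only and so passed the filter through the line where they are high. For these 16 the levels in each library describe the difference. Their p-values add nothing to it and are not printed. The other 9 reached it in both lines and were called as well (COL3A1, COL4A5, COL6A1, COL7A1, COL8A1, COL12A1, LAMA5, LAMB2 and LAMC1). How many of all genes at that level in both lines were called was not counted. Cell line and culture batch cannot be told apart in this comparison.

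Among the fibrillar collagens, the lines expressed different chains. COL5A2, which encodes the alpha2 chain of type V collagen, a regulator of fibril diameter, was the most abundant collagen of the untreated libraries labelled KGN, at 48.7, 49.8 and 48.9 FPKM or 40.4% of the summed collagen level. It was at 0.105, 0.0553 and 0.160 FPKM in those labelled COV434. COL5A1, the alpha1 chain of the same protein, was at 0.0386, 0.0471 and 0.0454 FPKM in the former and at 68.8, 37.0 and 48.1 FPKM in the latter. Every library of 1 label was high in the chain that was near 0 in every library of the other. The difference was 5.50 ± 0.08 (SE) for COL5A2 and -5.60 ± 0.21 for COL5A1. Type V collagen is usually a trimer of both chains, and no untreated library had both above 1 FPKM.

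Type I collagen, the main fibril protein of most connective tissue, was split in a similar way at lower levels. COL1A1 was at 14.8, 9.65 and 11.9 FPKM in untreated libraries labelled COV434 and at 0.115, 0.131 and 0.103 FPKM in those labelled KGN. The difference was -3.54 ± 0.15. COL1A2, its partner chain, was at 0.604, 0.582 and 0.674 FPKM in the libraries labelled KGN and had 1 read in each untreated library labelled COV434, for a mean of 0.00535 FPKM. It was too low to be tested. COL3A1, which forms homotrimers, was the second collagen of KGN with 24.1, 26.5 and 26.6 FPKM, against 5.83, 5.25 and 5.41 FPKM in COV434 (2.04 ± 0.08, adjusted p = 1.58e-06). COL3A1 and COL5A2 lie tail to tail on chromosome 2 with 19149 bases between them. Both were higher in KGN, but COL3A1 kept a level above 5 FPKM in every untreated library labelled COV434, where COL5A2 did not exceed 0.160 FPKM. Of the minor fibrillar collagens, COL11A1 was at 2.06 ± 0.244 FPKM in KGN and 0.00654 ± 0.00657 FPKM in COV434, and COL27A1 at 0.0501 ± 0.0103 and 1.52 ± 0.635 FPKM.

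Of the collagens outside the fibrillar types and types IV and VI, COL12A1, COL15A1 and COL7A1 were higher in the libraries labelled COV434, and COL8A1 and COL26A1 in those labelled KGN. Of the 10 fibril-associated collagens, COL12A1 alone was high enough to be tested. COL12A1, a fibril-associated collagen with interrupted helices, was at 76.4, 57.6 and 65.1 FPKM there and at 1.74, 2.05 and 2.07 FPKM in those labelled KGN (-4.51 ± 0.12, adjusted p = 2.4e-07). In COV434 it led the collagens with 29.7% of their sum, but its range overlapped that of COL5A1. COL15A1, a basement membrane-zone collagen with an endostatin-like end, was at 18.8, 12.7 and 12.7 FPKM in COV434. It had 1 read over the 3 untreated libraries labelled KGN (-3.95 ± 0.15). Its paralog COL18A1, the source of endostatin, was at 1.16 ± 0.0826 FPKM in KGN and 0.163 ± 0.0806 FPKM in COV434. COL7A1, which forms anchoring fibrils below epithelia, was at 15.9, 8.82 and 11.3 FPKM in COV434 and 1.74, 1.59 and 1.72 FPKM in KGN (-2.24 ± 0.19, adjusted p = 5.79e-05). COL8A1, a short-chain collagen that forms hexagonal networks, was higher in KGN at 6.21, 5.79 and 6.39 FPKM against 1.44, 1.46 and 1.39 FPKM (1.55 ± 0.07, adjusted p = 3.24e-06). COL26A1, a collagen first found in testis and ovary, was at 3.45, 3.38 and 3.77 FPKM in KGN. It was at 0.249, 0.410 and 0.682 FPKM in COV434 (1.66 ± 0.13).

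The 6 chains of type IV collagen are encoded by 3 gene pairs. In each pair the genes start close together and are read in opposite directions, so that they share a promoter region. The stretch upstream of 1 gene of each pair is shown, because the pairs were expressed together in 2 cases and apart in the other. The sequences are those of RefSeq on GRCh38.p14, plus strand, ending at the base before the start of the named gene. They were held for 41 of the 56 genes. Capitals mark matches of 3 short motifs, searched on either strand. The box bound by NF-Y was searched as CCAAT. The box bound by factors of the SP family was searched as GGGCGG. The box bound by the general factor TBP was searched as TATAAA. None of the marked letters belongs to more than 1 motif.
COL4A2, chr13:110307158-110307283, the 126 bases between its start and that of COL4A1: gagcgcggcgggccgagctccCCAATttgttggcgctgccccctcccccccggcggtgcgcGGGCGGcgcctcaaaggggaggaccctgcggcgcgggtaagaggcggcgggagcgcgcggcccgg
COL4A3, chr2:227164374-227164623, 250 of the bases between its start and that of COL4A4: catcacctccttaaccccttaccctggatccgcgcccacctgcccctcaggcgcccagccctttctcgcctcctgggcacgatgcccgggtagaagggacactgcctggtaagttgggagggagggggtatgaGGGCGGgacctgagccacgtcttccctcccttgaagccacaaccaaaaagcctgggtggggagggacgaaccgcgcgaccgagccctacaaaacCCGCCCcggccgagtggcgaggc
COL4A5, chrX:108439588-108439837, 250 of the bases between its start and that of COL4A6: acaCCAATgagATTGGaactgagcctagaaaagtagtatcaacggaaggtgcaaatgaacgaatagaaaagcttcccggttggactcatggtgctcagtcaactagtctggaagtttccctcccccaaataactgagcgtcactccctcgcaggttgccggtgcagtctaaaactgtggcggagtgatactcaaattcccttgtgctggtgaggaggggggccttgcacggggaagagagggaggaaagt
The starts lie 127, 419 and 380 bases apart in the 3 pairs. The COL4A2 stretch has a GC content of 80.2% and 20 CG pairs, the COL4A3 stretch 66.4% and 17, and the COL4A5 stretch 51.2% and 8. The first holds 1 CCAAT and 1 GGGCGG, the second 2 GGGCGG and the third 2 CCAAT, and none holds TATAAA. Among 35116 promoters, the same windows hold CCAAT in 21.1% (126 bases) and 32.0% (250 bases), GGGCGG in 34.6% and 42.6%, and TATAAA in 5.87% and 10.7%. These matches describe the letters only.

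COL4A1 and COL4A2, which form the type IV collagen found in nearly all basement membranes, were expressed together in the libraries labelled COV434. COL4A1 was at 7.58, 4.84 and 5.34 FPKM there and COL4A2 at 14.4, 8.21 and 8.81 FPKM. In the 3 untreated libraries labelled KGN they had 4 reads and 1 read, and the differences were -2.76 ± 0.15 and -3.48 ± 0.20. The ratio of COL4A2 to COL4A1 kept between 1.65 and 1.90 in the 6 libraries labelled COV434. The annotated genes overlap by 1422 bases on opposite strands, but their exons do not overlap. COL4A1 has 0 exon bases overlapped by a gene on the other strand. COL4A2 has 95 (0.492%), overlapped by COL4A2-AS1 and COL4A2-AS2. The sources used here do not say whether reads were counted by strand.

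COL4A3 and COL4A4, the chains of the kidney glomerulus and other specialised basement membranes, followed the same lines at a lower level. COL4A4 was at 3.34, 2.04 and 2.31 FPKM in untreated libraries labelled COV434 and 0.0642, 0.0871 and 0.0656 FPKM in those labelled KGN (-1.71 ± 0.15). COL4A3 was at 1.55, 0.928 and 1.02 FPKM and 0.0591, 0.0706 and 0.0668 FPKM, and was below the filter of this comparison.

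COL4A5 and COL4A6 did not keep together. COL4A5 was at 28.8, 20.0 and 24.8 FPKM in COV434 and 11.5, 11.8 and 11.8 FPKM in KGN (-0.99 ± 0.14, adjusted p = 0.000642), so it was the most abundant type IV chain in both lines. COL4A6 was at 6.83, 6.92 and 7.05 FPKM in KGN and at 0.559, 0.266 and 0.225 FPKM in COV434, a difference in the other direction (2.56 ± 0.11). COL4A5 exceeded COL4A6 by 1.67 to 1.71 times in the untreated libraries labelled KGN and by 51.6 to 110 times in those labelled COV434. In KGN, COL4A5 and COL4A6 thus made up nearly all type IV collagen RNA, while in COV434 all chains but COL4A6 were at 0.928 FPKM or above in every untreated library.

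Type VI collagen, a beaded filament of an alpha1, an alpha2 and 1 further chain, was also divided. COL6A2 was at 6.77, 7.76 and 7.40 FPKM in untreated libraries labelled KGN and had 4 reads in the 3 labelled COV434 (3.03 ± 0.08). COL6A1 was at 12.1, 10.1 and 10.6 FPKM in COV434 and 1.88, 1.91 and 1.85 FPKM in KGN (-2.05 ± 0.09, adjusted p = 1.84e-06). The genes are neighbours on the same strand of chromosome 21, with 93046 bases between them. COL6A3, the usual further chain, had 0 reads in all 6 untreated libraries, for which a count of 0 allows up to 0.00276 FPKM in KGN and 0.00304 FPKM in COV434 (3 reads over the group, counting error only). COL6A6, an alternative to it, was at 0.0935 ± 0.0339 and 0.0349 ± 0.035 FPKM.

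The laminins differed most in their beta chains. LAMB2, the beta2 chain, took 69.9% of the laminin sum in untreated libraries labelled KGN, at 98.8, 118 and 119 FPKM, and was at 51.1, 25.2 and 31.2 FPKM in those labelled COV434 (1.67 ± 0.25, adjusted p = 0.00104). LAMB1 was at 22.1, 20.5 and 20.8 FPKM in COV434 and 0.172, 0.180 and 0.137 FPKM in KGN (-4.25 ± 0.07). LAMB3, the beta3 chain of an epithelial laminin, led the laminins of COV434 at 80.3, 55.7 and 60.1 FPKM. It had 1 read in the 3 untreated libraries labelled KGN (-6.03 ± 0.14). The libraries labelled COV434 therefore expressed 3 beta chains at a mean of 21.1 FPKM or above, and those labelled KGN expressed 1.

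Of the alpha and gamma chains, LAMA5 and LAMC1 were expressed in both lines, while LAMA1, LAMA3 and LAMC3 reached 1 FPKM in 1 line only. LAMA5 was the main alpha chain of both, at 8.0, 10.2 and 9.98 FPKM in KGN and 77.0, 35.9 and 43.5 FPKM in COV434 (-2.28 ± 0.28, adjusted p = 0.000342). LAMC1, the common gamma chain, was at 33.9, 35.9 and 37.3 FPKM in KGN and 28.6, 19.2 and 21.0 FPKM in COV434 (0.63 ± 0.15, adjusted p = 0.00931). LAMA3, an alpha chain that pairs with LAMB3, was at 3.13, 1.95 and 2.29 FPKM in COV434, although LAMB3 was at 55.7 FPKM or above in the same libraries. Of other chains, LAMA1 was at 2.11 ± 0.55 FPKM in COV434 and 0.00573 ± 0.00207 FPKM in KGN, LAMC3 at 0.291 ± 0.0309 and 2.59 ± 0.34 FPKM, and LAMA2, LAMA4 and LAMB4 were at most at 0.136 FPKM in any untreated library. In the order of laminins in COV434, LAMB3, LAMA5, LAMB2, LAMC1 and LAMB1 overlapped each with the next, whereas the order LAMB2, LAMC1, LAMA5 and LAMC3 in KGN was free of overlap.

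**Figure D2:**
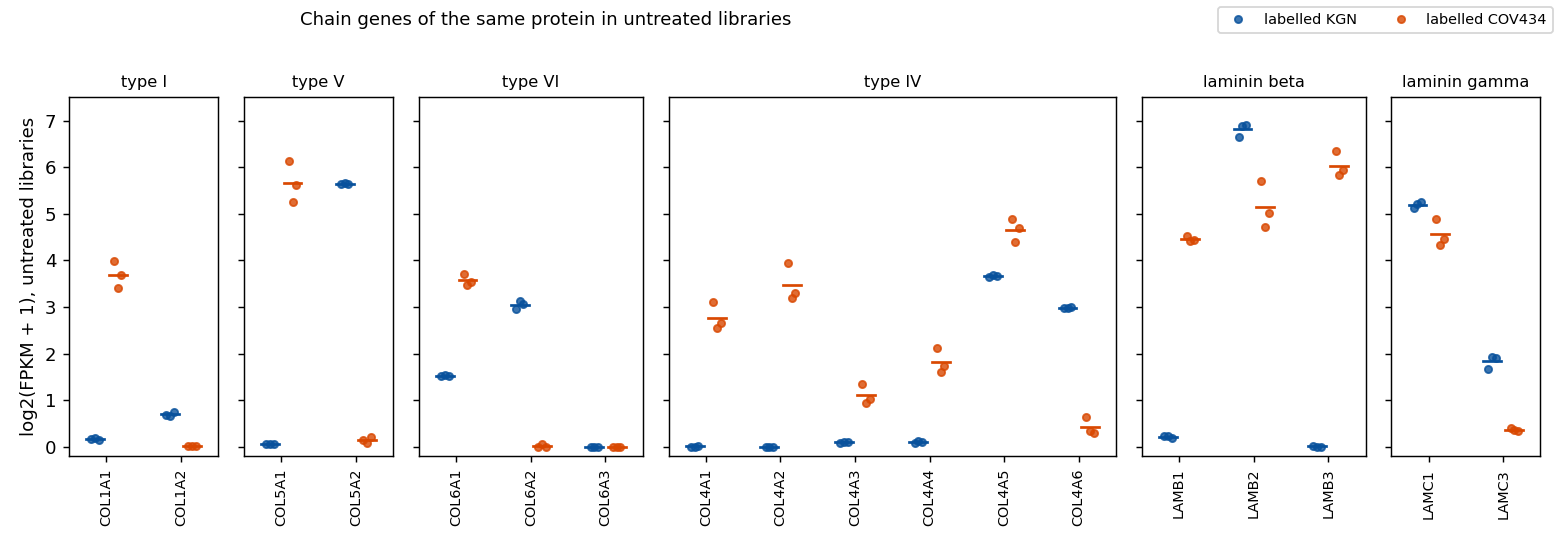
Chain genes of the same protein in the untreated libraries, as log2(FPKM + 1), with 1 point for each library and a bar at the mean of 3. For type V and type VI collagen, the chain that is high in libraries labelled KGN (blue) is not the one that is high in those labelled COV434 (orange), and of the laminin beta chains LAMB2 is high in both and LAMB1 and LAMB3 in COV434.

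The genes that process, bind and cut matrix proteins differed between the lines as well. Over 8 lists of such genes, 89 were tested, of which 26 were higher in KGN and 58 lower (94.4% called, beside 69% of all genes, 32.6% higher and 36.4% lower). Of these, 59 reached 1 FPKM in both lines, where 54 were called, 37 of them lower in KGN. The share called over all genes at that level in both lines was not counted. Of 12 tested receptors of collagen and laminin, 12 were lower in KGN (8 of them at 1 FPKM or above in both lines), among them CD44 (0.0847 ± 0.0202 against 28.9 ± 1.57 FPKM) and the integrin chain ITGA1 (0.247 ± 0.0207 against 12 ± 1.73 FPKM). All 5 tested crosslinking genes were lower in KGN, such as PXDN, which crosslinks type IV collagen (0.00347 ± 0.006 against 20.1 ± 6.63 FPKM). Of 17 tested genes for collagen folding and modification, 4 were higher and 12 lower, with the prolyl 3-hydroxylase gene P3H2 at 0.0413 ± 0.0315 against 26.0 ± 2.54 FPKM and P3H3 at 9.32 ± 0.508 against 0.00866 ± 0.015 FPKM. The 30 genes not at 1 FPKM in both lines, such as CD44, ITGA1, PXDN, P3H2 and P3H3, passed the filter through 1 line, as for the collagens themselves. Counts for the other lists were 5 higher and 4 lower of 11 for export and propeptide cleavage, 4 and 8 of 12 for basement membrane partners, 4 and 5 of 9 for interstitial partners, 5 and 6 of 12 for matrix proteases, and 4 and 6 of 11 for protease inhibitors.

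The response to 77-39 was tested within each labelled line, treated minus untreated, in the same way. In the libraries labelled KGN, 16 of the 56 genes passed the filter (12 collagens and 4 laminins), and 8 were called. Upregulated were COL6A2, COL26A1, COL4A5, COL18A1 and LAMC1, and downregulated were COL3A1, LAMB2 and COL4A6. These are 31.2% and 18.8% of the genes tested, beside 17.6% higher and 16.4% lower of all 12671 genes, 34% in both directions. The median difference was 0.06 over the 16 genes and 0.01 over all genes tested. Treated and untreated libraries did not overlap in 11 of the 16 genes, the 8 called ones among them. The share without overlap over all genes was not counted, so a lack of overlap is given below as description only. At an unadjusted p-value under 0.05, the threshold of the study, COL7A1 was added, which made 9 genes, while 45.3% of all genes passed.

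The summed level of the 7 fibroblast or stromal markers was 14.1 to 15.4 FPKM untreated and 18.2 to 20.7 FPKM treated in KGN, most of it LUM. The 16 granulosa markers summed to 110 to 118 FPKM untreated and 99.1 to 101 FPKM treated, with WT1 at 59.7 ± 2.85 and 46.9 ± 0.976 FPKM. The 4 immune markers summed to 0.239 to 0.342 and 0.396 to 0.469 FPKM, and the 6 endothelial markers to 5.69 to 6.65 and 5.65 to 6.03 FPKM, which overlap. The part of these shifts in the results for KGN was not tested.

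The largest difference among the 16 genes in KGN was that of COL6A2. It was at 6.77, 7.76 and 7.40 FPKM untreated and 11.3, 11.5 and 12.9 FPKM treated. Every treated library was above every untreated one, and the difference was 0.64 ± 0.07 (SE, adjusted p = 0.00111). COL6A1, which encodes the chain that assembles with it, was at 1.88, 1.91 and 1.85 FPKM untreated and 1.83, 2.09 and 1.84 FPKM treated (0.02 ± 0.07, adjusted p = 0.867). The ratio of COL6A2 to COL6A1 was 3.61 to 4.07 untreated and 5.51 to 7.04 treated, with no overlap.

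The paired genes COL4A5 and COL4A6 moved in opposite directions. COL4A5 was at 11.5, 11.8 and 11.8 FPKM untreated and 14.6, 14.6 and 13.3 FPKM treated (0.26 ± 0.05, adjusted p = 0.00927). COL4A6 was at 6.83, 6.92 and 7.05 FPKM untreated and 6.0, 6.41 and 5.61 FPKM treated (-0.18 ± 0.05, adjusted p = 0.0420). Neither gene overlapped between the groups, and the ratio of COL4A5 to COL4A6 was 1.67 to 1.71 untreated and 2.28 to 2.43 treated. The call of COL4A6 was close to the threshold and was lost in 9 of 15 alternative settings, with adjusted p-values up to 0.299. These include the fit with a replicate block (adjusted p = 0.0874), the filter at 0.1 FPKM or none, and the omission of 5 of the 6 libraries.

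COL3A1, the second fibrillar collagen of this line, was at 24.1, 26.5 and 26.6 FPKM untreated and 19.9, 20.3 and 19.1 FPKM treated (-0.36 ± 0.05, adjusted p = 0.00312). COL5A2, its neighbour and the first, was at 48.7, 49.8 and 48.9 FPKM untreated and 48.2, 47.9 and 44.9 FPKM treated (-0.06 ± 0.05, adjusted p = 0.312). All treated libraries were below all untreated ones for both genes, but for COL5A2 the gap was small and not called. COL26A1 was at 3.45, 3.38 and 3.77 FPKM untreated and 4.73, 4.89 and 5.06 FPKM treated (0.38 ± 0.06, adjusted p = 0.00315). COL18A1 was at 1.11, 1.26 and 1.12 FPKM untreated and 1.65, 1.60 and 1.68 FPKM treated (0.29 ± 0.08, adjusted p = 0.0308), and 16.4% of its exon bases overlap SLC19A1 on the other strand. Neither of these overlapped between groups, but COL18A1 lost its call in 8 of 15 settings, with adjusted p-values up to 0.0903.

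The laminin chains LAMB2 and LAMC1 changed in opposite directions. LAMB2 was at 98.8, 118 and 119 FPKM untreated and 86.3, 83.7 and 88.3 FPKM treated (-0.37 ± 0.08, adjusted p = 0.0122). LAMC1 was at 33.9, 35.9 and 37.3 FPKM untreated and 44.2, 41.9 and 40.0 FPKM treated (0.23 ± 0.06, adjusted p = 0.0203). The ratio of LAMB2 to LAMC1 was 2.92 to 3.28 untreated and 1.95 to 2.21 treated, with no overlap. LAMA5, the alpha chain of the same trimers, was at 9.41 ± 1.23 FPKM untreated and 9.42 ± 0.253 FPKM treated (0.01 ± 0.09, adjusted p = 0.943), and LAMC3 at 2.59 ± 0.34 and 3.09 ± 0.0793 FPKM (0.19 ± 0.08, adjusted p = 0.116). LAMC1 lost its call in 6 of 15 settings, among them the fit with a replicate block (adjusted p = 0.0670).

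With the replicate number as a block term, 3 genes were called higher (COL6A2, COL26A1 and COL4A5) and 2 lower (COL3A1 and LAMB2), beside 13.1% and 12.7% of all genes. The count of 5 higher also became 3 when the untreated library 2, the treated library 1 or the treated library 2 of KGN was left out. Over all genes, 3049, 2993 and 2751 were called then, against 4307 with all libraries. Of the genes not called in KGN, COL7A1 was at 1.74, 1.59 and 1.72 FPKM untreated and 1.37, 1.15 and 1.28 FPKM treated (-0.24 ± 0.08, adjusted p = 0.0590), with no overlap between the groups. The others, COL8A1, COL11A1 and COL12A1, differed by 0.11, 0.12 and -0.12, with adjusted p-values of 0.180, 0.288 and 0.311. COL1A2 was under the filter and was not tested, at 0.604, 0.582 and 0.674 FPKM untreated and 0.405, 0.376 and 0.348 FPKM treated.

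**Figure D3:**
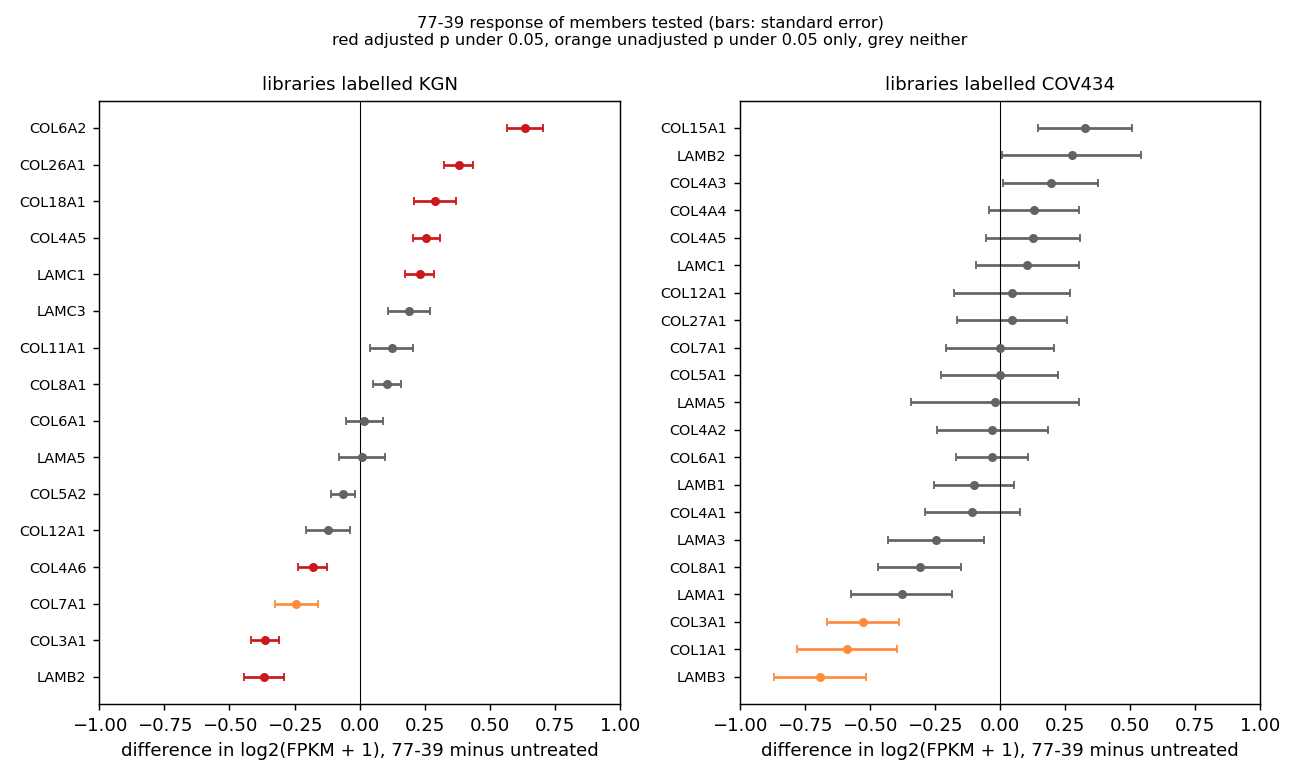
Response to 77-39 of the genes tested, 16 in libraries labelled KGN (left) and 21 in those labelled COV434 (right), as the difference in log2(FPKM + 1) with its standard error. In KGN 8 genes are red (adjusted p under 0.05), led by COL6A2 at 0.64, and in COV434 none is red and 3 are orange (unadjusted p under 0.05), all below 0.

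In the libraries labelled COV434, 21 of the 56 genes passed the filter (14 collagens and 7 laminins) and 0 were called by limma at an adjusted p-value under 0.05, where 0.0415% of all 12060 genes were called. At an unadjusted p-value under 0.05, 3 genes passed, all lower, beside 8% of all genes and 4.49% lower. The median difference was -0.02 over the 21 genes and -0.02 over all genes tested. Of the markers of other cell types, the endothelial cadherin CDH5 was at 2.15, 1.57 and 2.22 FPKM untreated and 0.626, 0.340 and 0.552 FPKM treated, with no overlap, and its part in the results for COV434 was not tested. The granulosa markers summed to 79.0 to 88.0 FPKM untreated and 67.7 to 77.4 FPKM treated, also without overlap, while the stromal, epithelial and immune sums overlapped.

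The 3 genes were LAMB3, COL3A1 and COL1A1. LAMB3 was at 80.3, 55.7 and 60.1 FPKM untreated and 41.6, 37.3 and 40.1 FPKM treated (-0.69 ± 0.18, unadjusted p = 0.00427, adjusted p = 0.262 by limma). COL3A1 was at 5.83, 5.25 and 5.41 FPKM untreated and 3.49, 3.19 and 3.86 FPKM treated (-0.53 ± 0.14, unadjusted p = 0.00476, adjusted p = 0.269 by limma). COL1A1 was at 14.8, 9.65 and 11.9 FPKM untreated and 9.17, 7.46 and 6.44 FPKM treated (-0.59 ± 0.19, unadjusted p = 0.0156, adjusted p = 0.418 by limma). With the replicate number as a block in limma, LAMB3, COL3A1 and COL1A1 were not called either (adjusted p = 0.0719, 0.155 and 0.133). With any 1 library of COV434 left out, their differences were -0.79 to -0.53, -0.58 to -0.47 and -0.73 to -0.44, and 0 genes were called lower. All treated libraries were below all untreated ones for each of the 3 genes. Of the 21 genes tested in this line 4 did not overlap, these 3 and COL8A1, and the share over all genes was not counted. When both lines were fitted together, so that all 12 libraries share 1 estimate of the spread, these 3 genes passed, with adjusted p-values of 0.00781, 0.00642 and 0.0457. In that fit 4.05% of all genes were called and 2.24% were lower. The libraries labelled KGN vary less, and LAMB3 and COL1A1 were near 0 in them, so the shared estimate can understate the spread in COV434. These passes are therefore not counted as calls. The ratio of LAMB3 to LAMB1 was 2.72 to 3.63 untreated and 1.85 to 2.38 treated, since LAMB1 was at 22.1, 20.5 and 20.8 FPKM untreated and 22.5, 20.0 and 16.9 FPKM treated.

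For the other abundant genes of COV434 the groups overlapped and no difference was called. COL12A1 was at 82.2, 77.3 and 49.9 FPKM treated (0.05 ± 0.22, adjusted p = 0.990), COL5A1 at 53.6, 46.8 and 48.7 FPKM, and LAMA5 at 66.8, 49.6 and 34.8 FPKM (-0.02 ± 0.32, adjusted p = 0.999). All of these ranges overlapped those of the untreated libraries. COL15A1 was at 18.6, 17.4 and 19.4 FPKM treated (0.33 ± 0.18, adjusted p = 0.755) and LAMB2 at 51.5, 37.2 and 37.9 FPKM (0.28 ± 0.27, adjusted p = 0.901), again with overlap. Same-numbered libraries deviated together in this line, and by number LAMB2 was higher in all 3 pairs (51.1 and 51.5, 25.2 and 37.2, 31.2 and 37.9 FPKM). With the replicate number as a block LAMB2 was not called either (adjusted p = 0.410), nor was COL15A1 (adjusted p = 0.375). The type IV chains COL4A1, COL4A2, COL4A3, COL4A4 and COL4A5 differed by -0.11 to 0.19, with adjusted p-values of at least 0.899. COL8A1 did not overlap, at 1.44, 1.46 and 1.39 FPKM untreated and 1.09, 0.757 and 1.06 FPKM treated, but was not called (-0.31 ± 0.16, adjusted p = 0.723). COL1A2 had 0 reads in all 3 treated libraries, which allows up to 0.00546 FPKM.

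**Figure D4:**
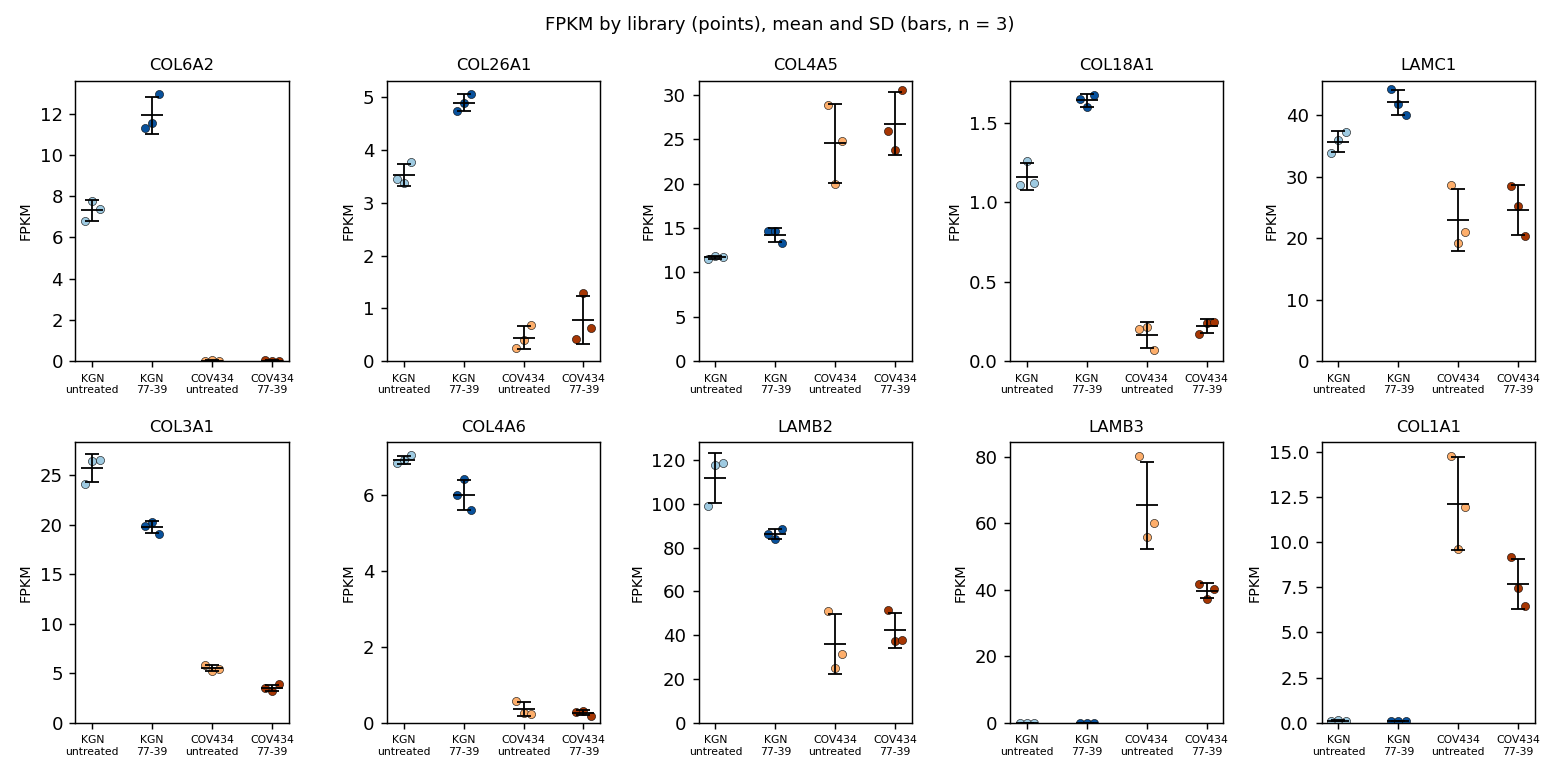
FPKM of 10 genes in each library (points, n = 3 per group) with mean and SD, for the 8 genes called in the libraries labelled KGN, then LAMB3 and COL1A1. COL6A2 and COL26A1 stand higher with 77-39 in KGN and are low or near 0 in COV434, while LAMB3 and COL1A1 are near 0 in KGN.

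Whether the response differed between the lines was tested as the interaction over all 12 libraries. Of the 56 genes 24 were tested. Of the 9 at 1 FPKM or above in both untreated lines 0 were called, and of the 15 others 2 were, COL6A2 and LAMB3, both with a higher value in KGN than in COV434, beside 3.6% of all 13127 genes in both directions and 1.85% higher. With the replicate block the 2 genes were called again, beside 2.06% of all genes. With 1 library left out the number higher was 0 to 3. It was 0 without the untreated library 1 or 3 or the treated library 2 or 3 of KGN. Over all genes, 126 to 975 were called with 1 library left out, against 472 with all 12. At an unadjusted p-value under 0.05, 4 genes passed, beside 18% of all genes. The difference of the responses was 0.62 ± 0.12 (adjusted p = 0.0186) for COL6A2 and 0.68 ± 0.17 (adjusted p = 0.0477) for LAMB3. Each gene was nearly silent in 1 line, since COL6A2 had 4 and 7 reads in the untreated and treated libraries labelled COV434, and LAMB3 had 1 and 0 reads in those labelled KGN. Each call thus compares a response in 1 line with a gene near 0 in the other. The interaction also takes 1 estimate of the spread from all 12 libraries. For a gene near 0 in 1 line this can understate the spread in the other, so these 2 adjusted p-values carry the same limit as the joint fit above. With a pseudocount of 0.1 neither was called (adjusted p = 0.374 and 0.129), and LAMB3 lost its call in 15 of 20 alternative settings. On recovered reads with voom the difference of COL6A2 turned to -0.20 (adjusted p = 0.962).

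Of the 9 genes at 1 FPKM or above in both lines, none of which was called in this test, COL3A1 is the one with an unadjusted p-value under 0.05 in both responses. It differed by -0.36 in KGN and by -0.53 in COV434, and the difference of the responses was 0.16 ± 0.12 (unadjusted p = 0.195, adjusted p = 0.521 by limma). LAMB2 differed by -0.37 in KGN and 0.28 in COV434 (-0.64 ± 0.31, unadjusted p = 0.0608, adjusted p = 0.303 by limma, and 0.00501 and 0.0726 with the replicate block). Without the untreated library 1 labelled COV434, LAMB2 passed with a difference of the responses of -0.92 (adjusted p = 0.0296). COL8A1 differed by 0.11 and -0.31 (0.41 ± 0.12, unadjusted p = 0.00567, adjusted p = 0.0924 by limma). COL4A5 and LAMC1, upregulated in KGN, differed by 0.13 ± 0.18 and 0.11 ± 0.20 in COV434, and their responses were not distinguishable between the lines (adjusted p = 0.788 and 0.827).

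Genes that fold, export and cut collagens changed in KGN too. Over the 8 lists 17 of 67 tested genes rose and 16 fell, 49.3% in both directions, beside 34% of all genes (17.6% higher and 16.4% lower). Of 16 tested genes for collagen folding and modification, 4 rose and 6 fell with 77-39. FKBP14, an endoplasmic reticulum prolyl isomerase for procollagen, went from 8.68 ± 0.419 to 13.2 ± 0.394 FPKM (0.55, adjusted p = 0.000612), and the prolyl 3-hydroxylase gene P3H1 from 8.84 ± 0.617 to 12 ± 0.193 FPKM (0.41, adjusted p = 0.00252). PLOD1, a lysyl hydroxylase, fell from 49.2 ± 5.7 to 26.4 ± 0.738 FPKM (-0.86, adjusted p = 0.00077), and FKBP10 from 88.1 ± 2.32 to 68.3 ± 2.06 FPKM (-0.36, adjusted p = 0.00191). The median difference of the 16 genes was 0.01, the same as over all genes.

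Of 11 genes for export and propeptide cleavage, 2 rose and 2 fell. Upregulated were MIA2 (0.62, adjusted p = 0.000596) and MIA3 (0.33, adjusted p = 0.00602), which help to load procollagen into transport carriers. Downregulated were TLL1, a procollagen C-proteinase (-0.21, adjusted p = 0.0241), and PCOLCE, an enhancer of that cleavage (-0.36, adjusted p = 0.0426). Of the 2 tested crosslinking enzymes, LOX rose (0.33, adjusted p = 0.0236) and LOXL2 fell (-0.56, adjusted p = 0.00463).

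Among the 7 tested receptors 3 rose and 0 fell, namely the integrin chains ITGB1 (0.26, adjusted p = 0.00877), ITGA3 (0.29, adjusted p = 0.0208) and ITGA6 (0.26, adjusted p = 0.0349), which bind laminin as pairs. Among 7 basement membrane partners 0 rose and 3 fell, namely FBLN1 (fibulin-1, -0.61, adjusted p = 0.000427), EFEMP2 (fibulin-4, -0.64, adjusted p = 0.00294) and VWA1 (-0.44, adjusted p = 0.00842). Of 9 interstitial partners 3 rose (LUM, CYR61 and POSTN, by 0.43, 0.53 and 0.19) and FBN1, fibrillin-1, fell (-0.31). Of 9 matrix proteases 4 rose, including ADAMTS1 (0.31) and ADAM9 (0.30), and 1 fell, MMP15 (-0.52). Of 6 protease inhibitors 0 rose and 2 fell, SPINT2 (-0.46) and A2M (-0.47). The medians of the 4 lists with the most unequal counts, receptors, basement membrane partners, proteases and inhibitors, were 0.19, -0.10, 0.19 and 0.04, beside 0.01 over all genes.

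In the libraries labelled COV434, 1 gene of these lists was called, A2M, a broad protease inhibitor, which fell from 2.70 ± 0.121 to 0.172 ± 0.0729 FPKM (-1.66, adjusted p = 0.0174). In the interaction 8 of 89 list genes were called, 8.99% beside 3.6% of all genes. Of these, 5 were at 1 FPKM or above in both untreated lines. A2M (1.19), LOX (0.81), MIA2 (0.60) and ADAMTS1 (0.59) had the higher response in KGN, and BCAM, a laminin receptor (-0.91), the lower. The other 3, SPINT1 (0.64), SPOCK1 (-0.83) and SPINT2 (-0.76), entered the test through 1 line. SPINT1 was at 0.0302 ± 0.0405 FPKM untreated and 0.0812 ± 0.0196 FPKM treated in KGN, against 5.45 ± 0.725 and 3.33 ± 0.143 FPKM in COV434. SPINT2 was at 0.794 ± 0.234 and 1.20 ± 0.123 FPKM in COV434, against 130 ± 3.53 and 94.6 ± 6.74 FPKM in KGN. SPOCK1 was at 5.38 ± 0.269 FPKM untreated and 10.4 ± 1.07 FPKM treated in COV434 and had at most a mean of 0.0762 FPKM in KGN.

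The genes under 1 FPKM in every group were below the filter and were not tested. The highest among them in untreated libraries were COL17A1, a hemidesmosome collagen, at 0.786, 0.716 and 0.499 FPKM in COV434 and 0.0611, 0.0580 and 0.0791 FPKM in KGN, and COL11A2 at 0.760, 0.547 and 0.686 FPKM in KGN and 0.233, 0.131 and 0.222 FPKM in COV434. COL16A1, a fibril-associated collagen, was at 0.247, 0.209 and 0.142 FPKM untreated and 0.404, 0.657 and 0.459 FPKM treated in COV434, with no overlap and 93 and 232 reads. COL2A1, the cartilage collagen, had at most 5 reads in any group, and COL10A1 was at 0.131 ± 0.0265 FPKM or lower. They are named here after their values were seen.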

How the data were processed

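RNA sequencing of 12 libraries was analysed, 3 of each cell line and treatment, grouped by the titles in the labels. The submitters' processing notes name HISAT2 2.0.5 and the mouse builds mm10 and mm8, while the deposited table holds human genes, and the coordinates of the 56 genes match release 29 of GENCODE on GRCh38. The labels' extraction text speaks of retinas, which neither cell line is. The authors deposited FPKM, scaled by gene length and by a factor for each library. That factor did not follow the reads on genes alone. In untreated library 1 labelled KGN, with 16803402 reads on genes, 3 reads on a gene of 1 kb gave 0.162 FPKM. In untreated library 1 labelled COV434, with 17701495, they gave 0.181 FPKM. What the factor holds beside library size was not tested. The counting tool and its strand setting are not given in the sources used here. Multiplied by gene length, 100% of the FPKM values were whole reads (within 0.05 of the value of 1 read), which gave the depth of each library. Of the 12 libraries, 0 pairs were identical, and 0 columns of values had no sample.

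Genes that averaged 1 FPKM or more in the libraries compared were tested on log2(FPKM + 1) with limma 3.58.1 in R 4.3.3 (lmFit, then moderated by eBayes with trend), two-sided, with Benjamini-Hochberg adjustment over all genes tested. Each response was fitted on its own 6 libraries, and the difference of the responses as an interaction over 12. The fits were tested on simulated data with known changes. Figures and tables were made with Python 3.11.15, numpy 2.4.6, pandas 2.3.3 and matplotlib 3.10.9. Promoter stretches were RefSeq sequences on GRCh38.p14.

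Samples with the same number deviated together in COV434 (correlations of 0.4, 0.474 and 0.166) and not in KGN (-0.0164, -0.018 and -0.019). Different numbers in COV434 gave -0.469 to 0.154, so the value for number 3 hardly stands out. As this holds in 1 line only and no label ties the numbers to a shared day, the block on the library number is an alternative. Further settings tried were 0.1 as pseudocount or as filter, no filter, median-ratio scaling, quantile normalization, protein-coding genes only, voom on the recovered reads, 1 fit of all 12 libraries, the treated libraries for the comparison of the lines, and each library left out. Leaving out both COV434 libraries numbered 1 was chosen after seeing the data.

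The genes and lists were chosen with earlier results of these data known. Named genes are those with a mean of at least 5 FPKM in any group, those called in a response or the interaction, the 3 most abundant collagens and laminins of each untreated line, and partner chains. Other genes at 1 FPKM or above were added so that all 28 are described. From each list of matrix genes, written out by hand, up to 4 genes with the smallest p are named. The values of 1 of the 56 genes are not reported here. Western blots, cell assays and mouse experiments were not analysed here.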

Additional observations from a re-analysis of the deposited data

Results flagged for a closer look

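The interaction of line and treatment in limma was called for 2 genes, each near 0 in 1 of the lines, so that a response in 1 line was set against a gene with hardly any reads in the other. Of the 9 genes at 1 FPKM or above in both untreated lines 0 were called. The interaction takes 1 spread from both lines, so for a gene near 0 in 1 line it can understate the spread in the other. COL6A2 had a difference of the responses of 0.62 in log2(FPKM + 1), KGN minus COV434 (adjusted p = 0.0186), with all 3 treated libraries labelled KGN above all untreated ones and at most 0.0620 FPKM in any library labelled COV434. LAMB3 had a difference of 0.68 (adjusted p = 0.0477), with all 3 treated libraries labelled COV434 below all untreated ones and at most 0.0115 FPKM in any library labelled KGN. LAMB3 lost its call in 15 of 20 alternative settings and COL6A2 in 6, with voom turning the difference of COL6A2 to -0.1962.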

How the results depend on the processing

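In KGN, 5 genes were higher and 3 lower. Beside them, 4307 of all 12671 genes were called in either direction. The number higher was 3 without a filter, where 2949 of all 32824 genes were called. It was 3 with the replicate block (3277 of 12671 genes). With 1 fit of all 12 libraries 2 were higher and 1 lower (1237 of 12671 genes). Leaving out 1 library gave 3 to 4 higher and 2 to 3 lower, while 2751 to 4128 of all genes were called. COL6A2 and COL3A1 kept their calls in all 15 alternatives, COL26A1, COL4A5 and LAMB2 in 14. In COV434, 0 were called, and 3 lower with 1 fit of all 12 libraries, whose shared spread takes in the less variable libraries labelled KGN. That fit called 488 of all 12060 genes, against 5 in the main fit. The block, where same-numbered libraries pair in COV434, gave 0 there, and 0 were called without both libraries numbered 1 (a choice made after seeing the data). Between the untreated lines, 10 were higher in KGN, and 17 without a filter. Of all genes, 9039 of 13098 were called in the main fit and 13035 of 32839 without a filter. In the interaction the number higher was 2, and it was 0 with a pseudocount of 0.1 and 0 with voom on recovered reads. It was 1 with a filter at 0.1 FPKM, without a filter, with median-ratio scaling or with quantile normalization. Of all genes, 472 of 13127 were called in the main interaction fit, 321 with that pseudocount and 264 with voom. The settings with 1 higher called, in the same order, 445 of 22190, 375 of 35981, 463 of 13127 and 597 of 13127. Leaving out 1 library gave 0 to 3 higher and 0 to 2 lower, with 2 lower (COL15A1 and LAMB2) without the untreated library 1 of COV434. Over all genes these fits called 126 to 975, and 786 without that library. The number higher was 0 without untreated library 1 or 3, or treated library 2 or 3, of KGN. There 191, 139, 140 and 210 of all genes were called. With voom the difference of COL6A2 was -0.1962, from 11 reads or fewer in COV434. The median of all genes in the comparison of the lines moved to 0.18 with voom. For voom, the reads on genes were the library size, in place of the deposited scaling. The causes were not tested. Depth limits the genes under 1 FPKM, for which 3 reads over a group are the largest level that a count of 0 allows.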
